A study of Mus musculus with 32 samples.

Results

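The 6 libraries labelled Liver, 3 from Ftsj1-deficient mice (Ftsj1_DF) and 3 from wild-type brothers (WT), were compared across every named gene of their table. All 55289 gene names of the series entered, and 6 of its 32 libraries. Mice were male and 4 months old, received no treatment, and gave brain, heart, kidney and liver from the same 6 animals, while the spleens came from other mice. The labels place the 6 mice in 2 sets of brothers, 1 of which holds a single mouse of each genotype. They give the genotype without the allele, the targeted exons or the strain. Each library is labelled as whole tissue of 1 mouse, from 5 µg of total RNA.

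Ftsj1 encodes a methyltransferase that places a methyl group on the ribose of nucleotides in the anticodon loop of certain tRNAs. It works with Wdr6 or Thada, which direct it to different positions of the loop, and loss of the human gene causes X-linked intellectual disability, so that neural tissue is where its absence is best known. The degradome method ligates an adapter to polyadenylated RNA that has lost its cap, and cuts a short tag next to the ligation site. A gene's count is therefore the number of tags from its uncapped, decaying or cleaved transcripts. More transcript, and a larger uncapped share of the same transcript, cannot be told apart in such counts. In whole tissue, fewer cells of a type and less RNA per cell cannot be told apart either.

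The organ name of these libraries is in doubt, because their transcripts were those of neural tissue. All 24 neuronal and glial gene lists had their highest level in the liver-named table among the 5 tables of the series. The median member of the synaptic vesicle list had a mean of 15794 normalized counts there, against 116 to 253 in the other tables. Normalized counts are tags divided by the library's size factor. Myelin and oligodendrocyte genes stood at a median of 7375 against 98.4 to 363, and astrocyte genes at 4863 against 154 to 348. Microglia genes stood nearer to the other tables, at 843 against 616 in the table named for brain, as did endothelial and mural cell genes, at 1539 against 1234 in kidney.

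Single markers gave the same picture. Snap25, a vesicle fusion protein of the synapse, had a mean of 27106 here, against 122 under the name of brain. Gfap, an astrocyte filament, had 5967 and 35.4. Liver genes ran the other way: Cps1, a urea cycle enzyme, had 426 and 74665, and Apoa1, an apolipoprotein, 18.3 and 4846. Secreted hepatocyte proteins had a median of 569 here against 106291 in the brain-named table. Hypothalamic and cerebellar transcripts were both present. Avp had 33707 and Oxt 21522, and the median cerebellar list member stood at 757, against 6.52 to 16.3 in the other tables. The highest member of that list here was the Purkinje cell calcium buffer Calb1, at 34221. In the kidney table the list's highest member stood at 43282, so a single high member does not mark the cerebellum. The heart gene Actc1 and the red cell gene Alas2 were listed at 0 in all 5 tables, so those names carry no information here.

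**Figure D1:**
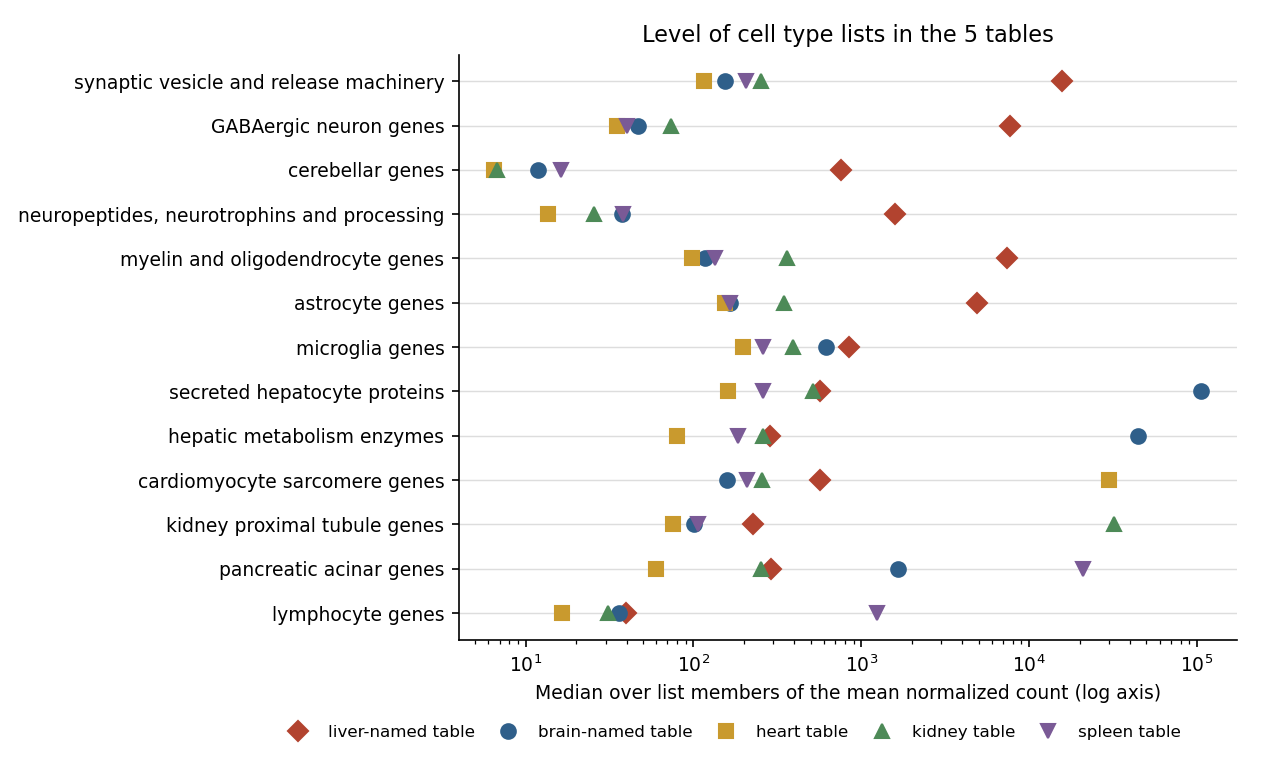
Median over list members of the mean normalized count (log axis) for 13 cell type lists, with 1 symbol for each of the 5 tables. The liver-named table lies to the right for neuronal and glial lists (15794 for synaptic vesicle genes), and the brain-named table for hepatocyte lists (106291 for secreted proteins).

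The table gives 1 mean per gene, but its digits allowed the whole tag counts of single libraries to be recovered for 30799 of the 30824 genes with a mean of up to 3000. Of the 22211 genes that the authors tested, 17989 (81.0%) have recovered counts, among them every gene that passed the threshold. The libraries carry the names D1, D2 and D3 (deficient) and W1, W2 and W3 (wild type) in what follows. The names do not tie a library to a labelled mouse, and genotype was read from the sign of the fold change, with a positive value taken as a higher level in the deficient mice, since Ftsj1 has a negative one. Recovered genes held 8150743 to 10754608 tags per library, and size factors ran from 0.900 to 1.17. These genes make up 13.7% of the sum of means, so the most abundant transcripts have no values by library.

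A library of each genotype stood apart from the other 4. On log2 values over the 17989 genes, Pearson's r was 0.886 to 0.952 among D2, D3, W2 and W3, and 0.733 to 0.859 for pairs that included D1 or W1. These correlations are across genes, which are not independent replicates, and serve as a description. In 777 genes a single library held over 60% of the normalized counts, and in 755 of them that library was W1 (595) or D1 (160). Genes typical of the other tables were higher in these libraries too: 176 genes of the brain-named table stood at a median of 1.12%, 0.331% and 0.349% of that level in D1, D2 and D3 and 1.06%, 0.392% and 0.439% in W1, W2 and W3. The 60 genes of the spleen table gave 1.24%, 0.272% and 0.525% of that level in D1, D2 and D3 and 1.35%, 0.425% and 0.407% in W1, W2 and W3. D1 and W1 were the highest of the 6 in all 4 such sets, and the remaining libraries did not reach them. There is 1 such library in each genotype, and the median log2 fold changes of these sets were small (-0.14 to -0.09), with none of their genes past the threshold. The labels hold 1 set of brothers with a single mouse of each genotype, and whether D1 and W1 are those mice cannot be told. Values without D1 and W1 are given below for most called genes and for the gene lists.

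**Figure D2:**
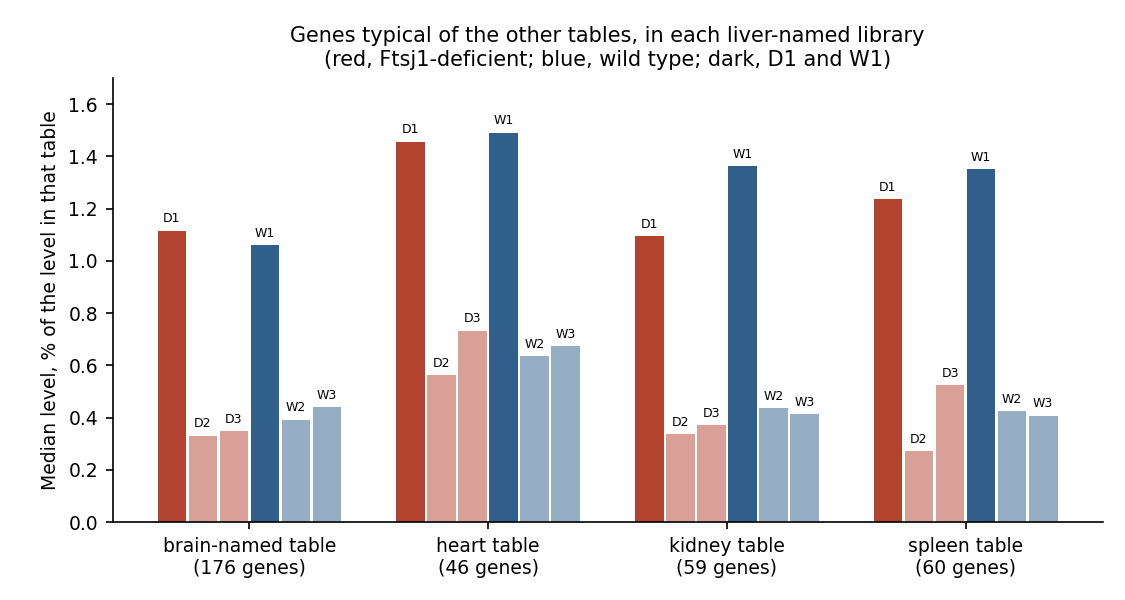
Median level, as a percentage of the level in the table that each gene set is typical of, in the 6 liver-named libraries (bars, 1 group for each of the brain-named, heart, kidney and spleen tables). D1 and W1 stand at 1.06% to 1.49%, while D2, D3, W2 and W3 stand at 0.272% to 0.733%.

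Loss of Ftsj1 was accompanied by few changes that passed the authors' test. At a 5% false discovery rate, 45 of 22211 genes (0.203%) passed in the authors' deposited table, from DESeq2's Wald test. Of these, 26 (0.117%) were higher and 19 (0.0855%) lower in the deficient libraries. At 10%, 125 genes passed (0.563%), with 55 higher and 70 lower. An unadjusted p under 0.05 was reached by 2301 genes (10.4%), 996 of them (4.48%) higher and 1305 (5.88%) lower. Over all genes tested the median log2 fold change was -0.05 and 47.1% of values were positive. Of each gene list, members past the threshold or else the 3 with the highest means were named by rule. Other members, and relatives of called genes, were chosen after their values were seen.

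All 45 genes had groups that did not overlap, which held for 14.6% of the 17989 genes with recovered counts (7.12% with every deficient library above every wild-type one, and 7.49% below). The number that passed changed with the library left out. Refitted on the recovered counts, 7 genes passed without D1, 69 without D2 and 6 without D3, and 2 passed without W1, 22 without W2 and 23 without W3. Each refit had fewer libraries and kept the dispersion (spread between libraries) that all 6 libraries gave. A call lost in a refit therefore need not have rested on the library left out. The gene Stx4a stayed at -1.33 to -1.28 on the log2 scale in these refits, but passed after adjustment in 1 of them. Without both D1 and W1, all 45 kept their direction, 41 had an unadjusted p under 0.05, and 2 passed after adjustment. The 45 genes were chosen on all 6 libraries, so neither these values nor the lack of overlap between groups is independent support. limma on the log2 values of the same counts passed 0 genes, while 1156 had an unadjusted p under 0.05, and 952 passed when libraries were weighted by their spread. The weights were estimated from the same 6 libraries and were uneven, from 0.179 for W1 and 0.398 for D1 to 3.75 for W2.

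Ftsj1 itself had the lowest p. The direction of the table and the genotype of the libraries were read from this gene, so its fall was fixed by that reading and does not check the labels. Its normalized counts were 152, 340.4 and 173 in D1, D2 and D3 and 884, 3045 and 2992 in W1, W2 and W3. Every deficient library lay below every wild-type one, and W1 lay below W2 and W3. Means were 222 ± 103 (SD, n = 3) in the deficient and 2307 ± 1233 (SD, n = 3) in the wild-type libraries. The authors' deposited table gives a log2 fold change of -3.38 ± 0.59 (SE) with an adjusted p of 0.000176 by DESeq2, a 10.4-fold lower level. The gene passed in each of the 6 refits that leave out a library (adjusted p 0.000152 to 0.0105) and without D1 and W1 (-3.55, adjusted p 0.0172). It was the only gene of the 45 to do so in all 6. In limma without library weights it was lost, with an adjusted p of 0.734. Since the allele is not given, it is not known whether the remaining tags lie inside or outside the altered part of the gene.

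The genes that act beside Ftsj1 showed no call. Wdr6 had a mean of 18838 and a log2 fold change of 0.34 ± 0.38 in the authors' deposited table. Thada had normalized counts of 443, 545 and 608 in D1, D2 and D3 and 1672, 636 and 626 in W1, W2 and W3, and its groups did not overlap only because D3 stayed under W3. Its log2 fold change of -0.88 ± 0.52 (adjusted p 0.566, DESeq2, in the authors' deposited table) rested on W1, and was -0.13 without D1 and W1. Trmt13, another tRNA ribose methyltransferase, singled out here after its values were seen, had 618, 828 and 1011 in D1, D2 and D3 and 80.5, 285 and 340.3 in W1, W2 and W3. All deficient libraries lay above all wild-type ones, with W1 lowest. Its log2 fold change in the authors' deposited table was 1.80 ± 0.58 with an adjusted p of 0.165 by DESeq2, and 1.56 without D1 and W1. Of the 11 tested members of this list, 8 were positive and the median was 0.23, or 0.05 over recovered members without D1 and W1. Mrm2 and Cmtr1 were listed at 0.

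Other tRNA gene lists held no call. Of 57 tested tRNA modification enzymes, 35 were positive, none passed, and the median log2 fold change was 0.13. Nsun2, a tRNA cytosine methyltransferase and among the 3 most abundant of the list, had 0.85 ± 0.35 with an adjusted p of 0.328 by DESeq2 in the authors' deposited table. Of 22 cytosolic aminoacyl-tRNA synthetases, 13 were positive and none passed (median 0.19). Over recovered members without D1 and W1, the medians of these lists were -0.05 and -0.28. Their most abundant members, Hars, Aars and Gars, had log2 fold changes of 0.40 ± 0.41, -0.50 ± 0.47 and 0.29 ± 0.33 in the authors' deposited table.

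Besides Ftsj1, 18 genes fell. In a first group the 3 wild-type libraries were near each other. Stx4a, syntaxin 4, a membrane fusion protein of the cell surface, had normalized counts of 736, 755 and 746 in D1, D2 and D3 and 1799.8, 1925 and 1811 in W1, W2 and W3. The spread within each genotype was small beside the gap between them: means were 746 ± 9.50 (SD, n = 3) in the deficient and 1845 ± 69.5 (SD, n = 3) in the wild-type libraries. The authors' deposited table gives -1.31 ± 0.31 on the log2 scale (adjusted p 0.0242, DESeq2), a 2.47-fold fall that was -1.32 without D1 and W1. Med4, a subunit of the Mediator complex that links transcription factors to RNA polymerase, had 172, 218 and 154 in D1, D2 and D3 and 528, 759 and 491 in W1, W2 and W3. Its deficient libraries were all lower, by -1.71 ± 0.40 on the log2 scale (adjusted p 0.0238, DESeq2, in the authors' deposited table) and by -1.75 without D1 and W1.

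Dact2, a Dishevelled-binding regulator of Wnt signalling, had 101, 152 and 113 in D1, D2 and D3 and 433, 359 and 552 in W1, W2 and W3. The fall of -1.88 ± 0.41 in the authors' deposited table (adjusted p 0.0105, DESeq2) was -1.78 without D1 and W1. Its relatives, looked up after the call was seen, did not pass: Dact1 had -1.39 ± 0.74 and Dact3 -0.43 ± 0.36 in the authors' deposited table. Rhcg, an ammonia transporter best known from the kidney, had 75.1, 115 and 38.9 in D1, D2 and D3 and 552, 312 and 326 in W1, W2 and W3. W1 was the highest library, but W2 and W3 were also above every deficient one, and the log2 fold change was -2.37 ± 0.55 (adjusted p 0.0165, DESeq2, in the authors' deposited table) with all libraries and -2.04 without D1 and W1. The long noncoding gene Gm14066, outside the naming rule and chosen for its even libraries, had 223, 274 and 213 in D1, D2 and D3 and 814, 554 and 643 in W1, W2 and W3, with -1.50 ± 0.38 (adjusted p 0.0434, DESeq2) in the authors' deposited table. After adjustment, Stx4a and Gm14066 passed in 1 of the 6 refits that leave out a library, Med4 and Dact2 in 2, and Rhcg in 3.

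**Figure D3:**
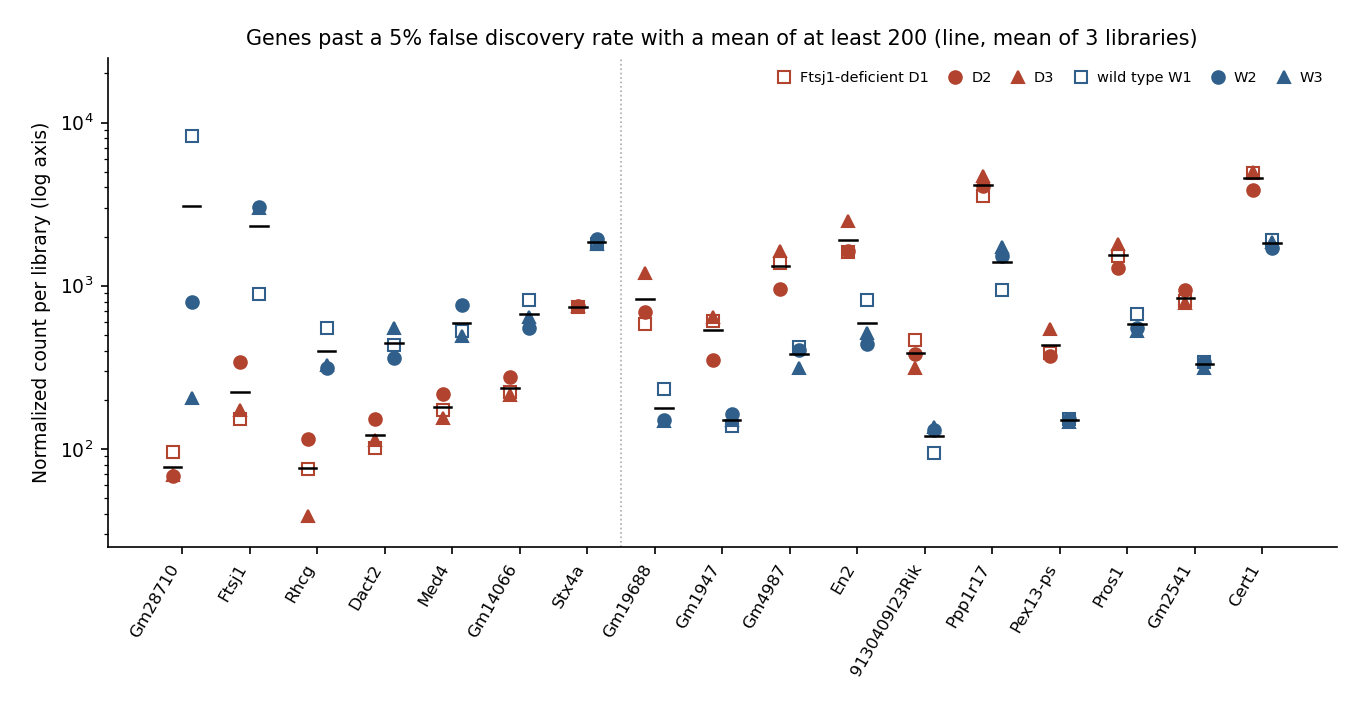
Normalized count (log axis) in each of the 6 libraries for the 17 genes past a 5% false discovery rate with a mean of at least 200, falls on the left and rises on the right, with a line at the mean of each genotype (n = 3). Stx4a has 736 to 755 in the deficient and 1799.8 to 1925 in the wild-type libraries, whereas Gm28710 has 8306 in W1 and 205 to 791 in W3 and W2.

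In a second group the size of the fall depended on W1, and a smaller fall remained without D1 and W1. In that refit 15 of the 19 falling genes had an unadjusted p under 0.05. This library held over 60% of the normalized counts of 10 of the 19 falling genes, and was the highest library in 15. Gm28710, a gene model annotated as protein coding, had 96.4, 68.1 and 68.9 in D1, D2 and D3 and 8306, 791 and 205 in W1, W2 and W3. W1 stood far above W2 and W3, which themselves were above all deficient libraries. Its log2 fold change was -5.32 ± 0.99 in the authors' deposited table (adjusted p 0.000545, DESeq2), and -2.86 without D1 and W1. Chrne, the adult-type epsilon subunit of the muscle acetylcholine receptor, had 1.85, 9.87 and 8.89 in D1, D2 and D3 and 237, 46.7 and 62.6 in W1, W2 and W3 and a log2 fold change of -4.08 ± 0.89 (adjusted p 0.0105, DESeq2, in the authors' deposited table), which became -2.54 without D1 and W1. Prelid2, of a family of mitochondrial lipid transfer proteins, had 6.49, 17.8 and 18.9 in D1, D2 and D3 and 454, 51.5 and 65.9 in W1, W2 and W3, and its fold change went from -3.73 ± 0.90 (adjusted p 0.0280, DESeq2, in the authors' deposited table) to -1.68, with an unadjusted p of 0.129, without D1 and W1.

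Some of these genes are known from tissues outside the nervous system. Prl5a1, of the placental branch of the prolactin family, had 1.85, 7.89 and 4.44 in D1, D2 and D3 and 357, 55.3 and 23.05 in W1, W2 and W3. Oosp3, of an oocyte-secreted family, had 0.927, 2.96 and 3.33 in D1, D2 and D3 and 158, 20.02 and 15.4 in W1, W2 and W3. All deficient libraries were under 8 normalized counts for both genes, and W1 was more than 6 times W2. The authors' deposited table gives -4.94 ± 1.05 (adjusted p 0.00642, DESeq2) and -4.76 ± 1.16 (0.0285), against -2.66 and -2.49 without D1 and W1. Of 31 listed oocyte, placental and prolactin genes, 11 were tested, 8 were negative, these 2 passed and the median was -1.23. Over the same members without D1 and W1 the median was -0.79.

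The olfactory receptor pseudogene Olfr755-ps1 had no tag in any deficient library and normalized counts of 348, 28.6 and 15.4 in W1, W2 and W3. Against a floor of 3 tags over the 3 deficient libraries it was at least 130.5-fold lower, and at least 21.9-fold lower with W2 and W3 as the wild type (adjusted p 0.000176, DESeq2, in the authors' deposited table). Aqp10-ps, an aquaporin pseudogene, had 1 tag in D2, none in D1 or D3, and 99.3, 18.1 and 4.39 normalized counts in W1, W2 and W3 (adjusted p 0.0442). Long noncoding genes as a class were higher in W1 than elsewhere: the median member deviated by 0.55 on the log2 scale there and by -0.10 to 0.02 in the other libraries. Their median log2 fold change over 2131 tested genes was -0.31. The part of W1's makeup in these falls was not tested.

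The 26 genes that rose were more evenly spread over libraries: D1 was highest in 13, D2 in 2 and D3 in 11, and all 26 had an unadjusted p under 0.05 without D1 and W1. Cert1, which carries ceramide from the endoplasmic reticulum to the Golgi, had 4891, 3861 and 4944 in D1, D2 and D3 and 1902, 1713 and 1863 in W1, W2 and W3. Deficient libraries were at least 3861 and wild-type ones at most 1902. Its log2 fold change was 1.32 ± 0.33 in the authors' deposited table (adjusted p 0.0351, DESeq2), a 2.50-fold rise, and 1.30 without D1 and W1. Pros1, the anticoagulant protein S and a ligand of TAM receptors, had 1514, 1291 and 1793 in D1, D2 and D3 and 670.4, 549 and 530.1 in W1, W2 and W3. It rose by 1.39 ± 0.35 (adjusted p 0.0446, DESeq2, in the authors' deposited table), and by 1.51 without D1 and W1.

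A pair of the rising genes are known from the cerebellum. Ppp1r17, a protein phosphatase inhibitor of Purkinje cells, had 3569.6, 4082 and 4693 in D1, D2 and D3 and 936, 1511 and 1724 in W1, W2 and W3. En2, a homeobox factor that patterns midbrain and cerebellum, had 1621, 1629 and 2476 in D1, D2 and D3 and 822, 438 and 513 in W1, W2 and W3. In both, the lowest deficient library was above the highest wild-type one, and W1 was the lowest wild-type library for Ppp1r17 and the highest for En2. The authors' deposited table gives 1.57 ± 0.40 (adjusted p 0.0447, DESeq2) and 1.69 ± 0.43 (0.0468), and without D1 and W1 the values were 1.44 and 2.11. En1, its paralogue, had -1.74 ± 0.84 and did not pass (adjusted p 0.446, DESeq2, in the authors' deposited table).

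As a list, cerebellar genes held a single call. En2 was the 1 of 12 tested members to pass, 8 were positive, and the median was 0.38, or 0.21 over recovered members without D1 and W1. Calb1 had 0.75 ± 0.31 (adjusted p 0.347) and Itpr1, the calcium release channel of Purkinje cells, 0.43 ± 0.33 in the authors' deposited table. Gabra6, a receptor subunit of granule cells, had normalized counts of 492, 1232 and 874 in D1, D2 and D3 and 254, 769 and 921 in W1, W2 and W3. Car8, a Purkinje cell protein, had 1825, 3813 and 3099 in D1, D2 and D3 and 518, 2804 and 3600.2 in W1, W2 and W3. W1 was the lowest library for Gabra6 and Car8 and the groups overlapped. Pcp2, Cbln1 and Neurod1 were listed at 0.

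3 rising genes had low levels. Dsg1b, a desmoglein of epithelial desmosomes, had 264, 53.3 and 102 in D1, D2 and D3 and 9.42, 20.02 and 9.88 in W1, W2 and W3 and a log2 fold change of 3.42 ± 0.75 (adjusted p 0.0105, DESeq2, in the authors' deposited table), which was 2.37 without D1 and W1. It has close copies: Dsg1a had 16.7, 9.87 and 14.4 against 208, 19.1 and 12.1 and Dsg1c 6.49, 6.91 and 6.66 against 0.856, 15.3 and 13.2 in the same order of libraries, and the groups of both copies overlapped. Tags may have been divided among the copies. Myl10, a myosin light chain, had 82.5, 27.6 and 31.1 in D1, D2 and D3 and 1.71, 3.81 and 4.39 in W1, W2 and W3, with 3.85 ± 0.91 (adjusted p 0.0243, DESeq2) in the authors' deposited table and 2.84 without D1 and W1. Tal2, a basic helix-loop-helix factor of midbrain neurons, had 68.6, 25.7 and 62.2 in D1, D2 and D3 and 1.71, 4.77 and 8.78 in W1, W2 and W3, with 3.38 ± 0.87 (adjusted p 0.0468, DESeq2) in the authors' deposited table and 2.70 without D1 and W1. D1 was the highest library in all 3. Of 19 tested skeletal muscle genes, Myl10 rose and Chrne fell, and the median was 0.09 (recovered members 0.11, and 0.19 without D1 and W1). Of 20 epithelial junction and keratin genes, Dsg1b was the 1 that passed (median -0.20; recovered members -0.30, and -0.14 without D1 and W1).

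Gene models and pseudogenes made up much of the rest. Pseudogenes were 14 of the 26 rising genes and 2 of the 19 falling ones, and 10.2% of genes tested. They leaned upward as a class: over 2259 tested pseudogenes the median log2 fold change was 0.27 and 63.9% were positive, against -0.05 and 46.6% over 16002 protein-coding genes. By library, the median pseudogene deviated by 0.22, 0.14 and 0.34 in D1, D2 and D3 and by -0.14, 0.01 and -0.18 in W1, W2 and W3. The 3 deficient libraries were thus all above the 3 wild-type ones, with no test made over genes.

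Pex13-ps, a pseudogene of the peroxisomal import gene Pex13, had 388, 371 and 543 in D1, D2 and D3 and 152, 153 and 146 in W1, W2 and W3. The wild-type libraries were almost equal, and the log2 fold change was 1.53 ± 0.38 (adjusted p 0.0396, DESeq2, in the authors' deposited table) and 1.61 without D1 and W1. Its parent gene had a mean of 3982 and 0.58 ± 0.43 in the authors' deposited table (adjusted p 0.670). Rpl48-ps1 had 414, 206 and 338 in D1, D2 and D3 and 97.6, 56.2 and 75.7 in W1, W2 and W3, with 2.06 ± 0.48 (adjusted p 0.0226, DESeq2) in the authors' deposited table. Among unnamed models, singled out after their values were seen, Gm19077 had 174, 184 and 183 in D1, D2 and D3 and 26.5, 47.7 and 38.4 in W1, W2 and W3 and a log2 fold change of 2.27 ± 0.46 (adjusted p 0.00541, DESeq2, in the authors' deposited table). Gm2541 had 804, 940.2 and 781 in D1, D2 and D3 and 342, 340.3 and 315 in W1, W2 and W3, with 1.34 ± 0.33 and an adjusted p of 0.0384 there. Gm14322, a protein-coding model, had 158, 289 and 333 in D1, D2 and D3 and 56.5, 57.2 and 62.6 in W1, W2 and W3, with 2.15 ± 0.47 and an adjusted p of 0.0105. Each of these was higher in every deficient library. A short tag from a pseudogene can match its parent and other copies, so the locus behind these counts is uncertain.

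**Figure D4:**
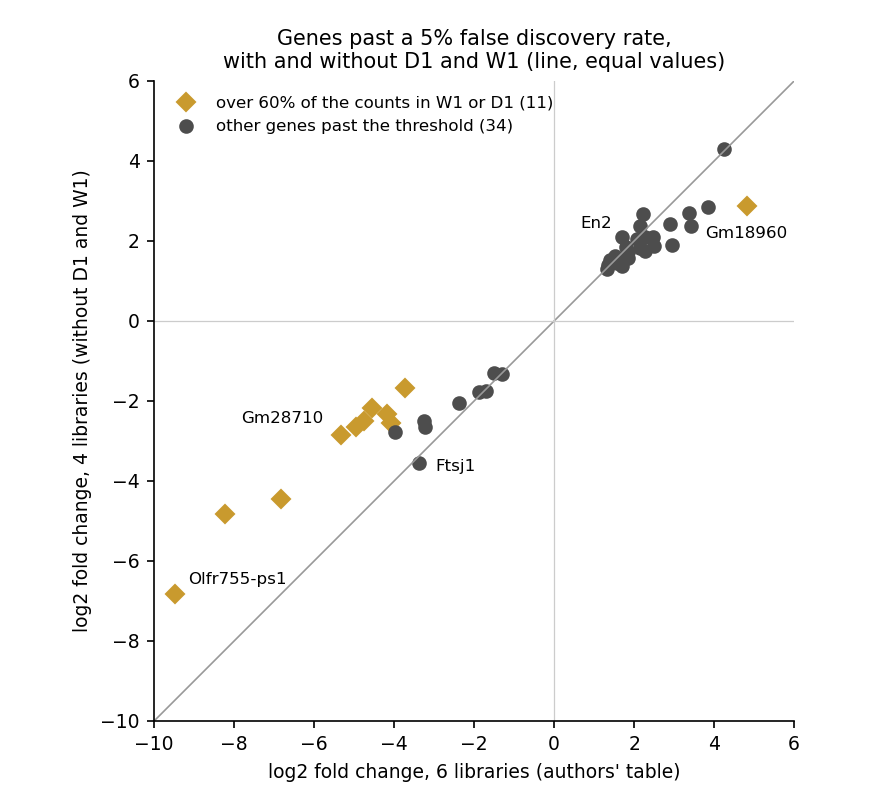
log2 fold change (deficient over wild type) of the 45 genes past a 5% false discovery rate, from 6 libraries on the x axis and from the 4 libraries without D1 and W1 on the y axis, with a line of equal values. The 11 genes with over 60% of their counts in W1 or D1 (10 falls and Gm18960) lie nearer 0 on the y axis, while Ftsj1 (-3.38 and -3.55) lies near the line.

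Among abundant genes, differences short of the threshold were also seen. Of 7683 genes with a mean of at least 1000, 7 passed, and the next 3 by p were Gli3, Sp4 and Rab9. Gli3, a transcription factor of the Hedgehog pathway, had 640.3, 596 and 399.9 in D1, D2 and D3 and 1565, 1480.3 and 1333 in W1, W2 and W3 (-1.42 ± 0.37, adjusted p 0.0583, DESeq2, in the authors' deposited table). Sp4, a zinc finger factor of neurons, had 2017, 1906 and 2265 in D1, D2 and D3 and 649, 911 and 897 in W1, W2 and W3 (1.33 ± 0.35, adjusted p 0.0583). Rab9, a small GTPase of late endosomes, had 3184, 4490.0 and 4862 in D1, D2 and D3 and 1494, 1731 and 1706 in W1, W2 and W3 (1.35 ± 0.36, adjusted p 0.0612). Their groups did not overlap, and without D1 and W1 the values were -1.50, 1.21 and 1.44.

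The 10 genes with the highest means did not pass. Cpe, the peptide-processing carboxypeptidase E, had 0.24 ± 0.38 in the authors' deposited table, and the others ran from 0.08 to 0.62. They were Atp5b, Psap, Mdh1, Cst3, Aldoa, Atp5g3, Ckb, Hsp90ab1 and Stmn3. The table could bound few genes closely: at means of at least 1000 the median SE was 0.434 on the log2 scale, and the 95% interval lay within 1 of 0 for 1924 of 7683 genes (25.04%). At means of at least 100 that share was 17.1%. For the other genes the interval also held changes of over 2-fold.

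Beside a list's median over all tested members stand, where given, those over its recovered members, first with all 6 libraries and then without D1 and W1. The recovered-member median changed sign on leaving out at least 1 library in 30 of the 53 lists, without W1 in 14, without D1 in 6, and without both in 8. The sign of a small list median is therefore not a stable value here.

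Synaptic genes showed no call. Of 26 synaptic vesicle and release genes, 11 were positive, and the median log2 fold change was -0.10 (recovered members 0.19 and 0.25) beside -0.05 for all genes tested. Rab3a and Nsf, among its 3 most abundant members, had -0.18 ± 0.45 and 0.53 ± 0.32 in the authors' deposited table. 3 members were lower at an unadjusted p under 0.05 (5.88% of all genes), Bsn, Sncb and Syt1, at -1.25 ± 0.55, -1.74 ± 0.78 and -1.05 ± 0.49 there. Postsynaptic scaffold genes had a median of 0.22 (15 of 24 positive, recovered members 0.12 and 0.26), with Camk2a at -0.46 ± 0.45. AMPA, NMDA and kainate receptor subunits had a median of 0.07 (10 of 19 positive, recovered members -0.10 and -0.14), with Gria2 at 0.95 ± 0.44 (adjusted p 0.428, DESeq2, in the authors' deposited table). GABAergic neuron genes had a median of 0.09 (9 of 14 positive, recovered members 0.10 and 0.35) and ran from -1.17 to 1.01. The highest was Gad2, a GABA-synthesising enzyme, at 1.01 ± 0.36 (adjusted p 0.226, DESeq2), while Gad1 had 0.16 ± 0.37 in the authors' deposited table.

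Receptor families differed among their members. For serotonin receptors 8 of 11 tested genes were negative and the median was -0.55, or -0.37 without D1 and W1. Htr3a, the subunit of the ligand-gated channel, had 3.71, 84.8 and 7.78 in D1, D2 and D3 and 259, 109 and 131 in W1, W2 and W3, with D2 close to the wild type. Htr7 had 163, 449.9 and 289 in D1, D2 and D3 and 313, 819 and 1086 in W1, W2 and W3, and W1 fell among the deficient libraries. Their values in the authors' deposited table were -2.37 ± 1.00 and -1.30 ± 0.60 (adjusted p 0.347 and 0.420, DESeq2). The most abundant serotonin receptors, Htr2c and Htr1a, had -0.12 ± 0.55 and 0.35 ± 0.61 there. Among 19 acetylcholine receptor subunits Chrne passed and the median was 0.19, which was -0.20 without D1 and W1. Chrnb2, the main beta subunit of neuronal nicotinic receptors, had 6119, 4332 and 5483 in D1, D2 and D3 and 2822, 2902 and 2857 in W1, W2 and W3, and its groups did not overlap, at 0.89 ± 0.33 with an adjusted p of 0.260 by DESeq2 in the authors' deposited table.

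Some neuropeptide genes had large differences that did not pass. Oxytocin (Oxt) and vasopressin (Avp), made by the same hypothalamic nuclei, had 2.28 ± 0.79 and 2.09 ± 0.77 in the authors' deposited table, with adjusted p of 0.203 and 0.255 by DESeq2. Recovery of library counts was not tried for these 2 genes. Pmch, the precursor of melanin-concentrating hormone from the lateral hypothalamus, had 1367, 3039 and 2850.2 in D1, D2 and D3 and 741, 176 and 1081 in W1, W2 and W3. Its deficient libraries were all higher, D2 and D3 most, and the log2 fold change was 1.86 ± 0.66 (adjusted p 0.223). Nts, neurotensin, had 317, 116 and 136 in D1, D2 and D3 and 41.96, 103 and 60.4 in W1, W2 and W3 and, in the authors' deposited table, 1.47 ± 0.61 (adjusted p 0.339). Of 30 tested genes of the list, 17 were positive and 13 negative, with log2 fold changes from -1.32 to 2.28. At an unadjusted p under 0.05 by DESeq2, 6 were higher, where 4.48% of all genes were, and 0 lower. The median was 0.16, and 0.38 over recovered members without D1 and W1.

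The pituitary hormone genes, which mark a gland next to the hypothalamus, varied between single libraries. Growth hormone (Gh) had 5161, 50.3 and 136 in D1, D2 and D3 and 905, 3655 and 5.49 in W1, W2 and W3. Pomc had 831, 337 and 764 in D1, D2 and D3 and 19.7, 471 and 729 in W1, W2 and W3 and Cga, the shared glycoprotein hormone subunit, 552, 56.2 and 701 in D1, D2 and D3 and 186, 46.7 and 75.7 in W1, W2 and W3. Gh was high in D1 and W2 and near 0 in W3, and the groups of Gh, Pomc and Cga overlapped. Cga had the highest log2 fold change of the list, 2.09 ± 0.85 (adjusted p 0.317, DESeq2, in the authors' deposited table), with D2 among the wild-type libraries. Of 10 listed genes 4 were tested, none passed, and the median of 0.45 was -0.34 without D1 and W1. The part of these differences between libraries in the neuropeptide values was not tested.

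Myelin genes held no call, and their median moved with single libraries. Of 24 myelin and oligodendrocyte genes, 16 were negative, the median was -0.28, and none had an unadjusted p under 0.05. By library the median recovered member deviated by -0.58, 0.20 and -0.22 in D1, D2 and D3 and by -0.40, 0.43 and 0.73 in W1, W2 and W3, so that D1 and W1 were both low. The median over recovered members was -0.34 with all libraries, -0.81 without W1, -0.04 without W3 and -0.52 without D1 and W1. Mbp had 0.13 ± 0.42 in the authors' deposited table, Cnp -0.27 ± 0.37 and Trf 0.36 ± 0.44. Astrocyte genes had a median of 0.06 (12 of 21 positive, recovered members -0.05 and -0.27), with Clu at 0.44 ± 0.45 and Aldoc at 0.16 ± 0.45 there.

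Of 18 microglia genes, 13 were negative, with a median of -0.30 and -0.63 without D1 and W1 over recovered members. The most abundant members, Csf1r, Laptm5 and C1qb, had log2 fold changes of -0.06 ± 0.41, 0.34 ± 0.67 and -1.53 ± 0.75 in the authors' deposited table. Trem2, a lipid-sensing receptor of microglia, had 620.0, 599 and 399 in D1, D2 and D3 and 843, 1415 and 1179.9 in W1, W2 and W3. Every deficient library was below every wild-type one, at -1.09 ± 0.41 with an adjusted p of 0.269 by DESeq2 in the authors' deposited table. Cx3cr1, the fractalkine receptor, had 411, 538 and 407 in D1, D2 and D3 and 539, 763 and 739.8 in W1, W2 and W3 and -0.59 ± 0.37. Aif1 ran the other way, with 386, 652 and 575 in D1, D2 and D3 and 344, 282 and 199 in W1, W2 and W3 and 0.97 ± 0.43 (adjusted p 0.392). Tmem119 had 1519.8, 1171 and 1468 in D1, D2 and D3 and 925, 2034 and 1933 in W1, W2 and W3, and its groups overlapped. Trem2, Cx3cr1, Aif1 and Tmem119 were chosen after their values were seen, and no microglia gene passed.

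Of 22 activity-dependent immediate early genes, 16 were negative and none passed, and their median was -0.25. Over recovered members it was -0.30 with all libraries and -0.63 without D1 and W1. Arc, a synaptic scaffold induced by activity, had -1.33 ± 0.43 (adjusted p 0.170, DESeq2, in the authors' deposited table). Fos had 4239.6, 3032 and 2533 in D1, D2 and D3 and 3589, 7485 and 6245 in W1, W2 and W3, where W1 fell among the deficient libraries. Npas4 had 70.4, 172 and 66.6 in D1, D2 and D3 and 159, 192 and 240.4 in W1, W2 and W3, with D2 inside the wild-type range. Egr1, the most abundant of the list, had 0.17 ± 0.42 in the authors' deposited table.

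Of 48 X-linked intellectual disability genes, Ftsj1 was the 1 that passed, and the median was -0.10 (recovered members -0.07 and 0.14). Kdm5c, a histone demethylase gene of the list that was picked after its values were seen, had 1519, 2063 and 1534 in D1, D2 and D3 and 3949, 2801 and 4021 in W1, W2 and W3. All deficient libraries were lower, at -1.07 ± 0.37 with an adjusted p of 0.198 by DESeq2 in the authors' deposited table. Gria3, the most abundant member, had 0.45 ± 0.31.

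Lists for cellular processes had positive medians except 1 (cholesterol synthesis genes, -0.11), and none of their members passed. Over recovered members, 4 of the 13 lists were negative with all 6 libraries (cholesterol synthesis, decapping and decay, stress response and mitochondrially encoded genes). Without D1 and W1, 4 were negative as well, with the circadian clock list (-0.21) in place of the mitochondrially encoded one. Abundant genes in general leaned the same way: at means of at least 1000, 59.6% of log2 fold changes were positive and the median was 0.12. Translation factors had a median of 0.32 (32 of 45 positive, recovered members 0.07 and 0.13), with Eef2 at 0.40 ± 0.40 and Eef1a1 at 0.72 ± 0.44 in the authors' deposited table. Eif2b3, a subunit of the exchange factor for initiation factor 2, had 2121, 1973 and 2282 in D1, D2 and D3 and 1088, 1237 and 1067 in W1, W2 and W3, without overlap (0.91 ± 0.32, adjusted p 0.211, DESeq2, in the authors' deposited table). microRNA processing and Argonaute genes were positive in 14 of 16 (median 0.25). Over recovered members their median was 0.20 with all libraries, -0.08 without W1 and 0.06 without D1 and W1. Cytosolic ribosomal protein genes were positive in 48 of 75 (median 0.15, recovered members 0.15 and 0.24). Decapping and decay factors, which act on the RNA this method reads, were positive in 19 of 37 (median 0.10, recovered members -0.14 and -0.06).

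Interferon-stimulated genes had the highest median of these lists with all 6 libraries, 0.40, with 23 of 30 positive, and 0.55 without D1 and W1 over recovered members. Stat2, a transcription factor of the response, had 4981, 5200.3 and 7114 in D1, D2 and D3 and 4286, 3529 and 3351 in W1, W2 and W3, and its groups did not overlap. Isg15 had 1027, 869 and 1177 in D1, D2 and D3 and 1070.3, 281 and 371 in W1, W2 and W3, with W1 among the deficient libraries, and Ifit1 376, 493 and 566 in D1, D2 and D3 and 62.5, 247 and 511 in W1, W2 and W3. In the stress response list 15 of 28 tested genes were positive and 13 negative, with log2 fold changes from -1.62 to 1.74. The median was 0.06 (recovered members -0.03 and -0.28). Nupr1, a stress-induced chromatin protein with the highest value of the list, had 2224, 1924 and 2568 in D1, D2 and D3 and 1144, 378 and 486 in W1, W2 and W3. It stood at 1.74 ± 0.52 with an adjusted p of 0.110 by DESeq2 in the authors' deposited table, while Atf4, the list's most abundant member, had 0.59 ± 0.36. Mitochondrially encoded genes had a median of 0.13 (8 of 15 positive), which was 0.72 over the 9 recovered members without D1 and W1 and -0.03 with them. W1 was the highest library here, where the median recovered member deviated by 0.92 on the log2 scale. In this list mt-Atp6 had 1.22 ± 0.38 (adjusted p 0.139, DESeq2) and mt-Rnr2 -0.27 ± 0.56 in the authors' deposited table.

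**Figure D5:**
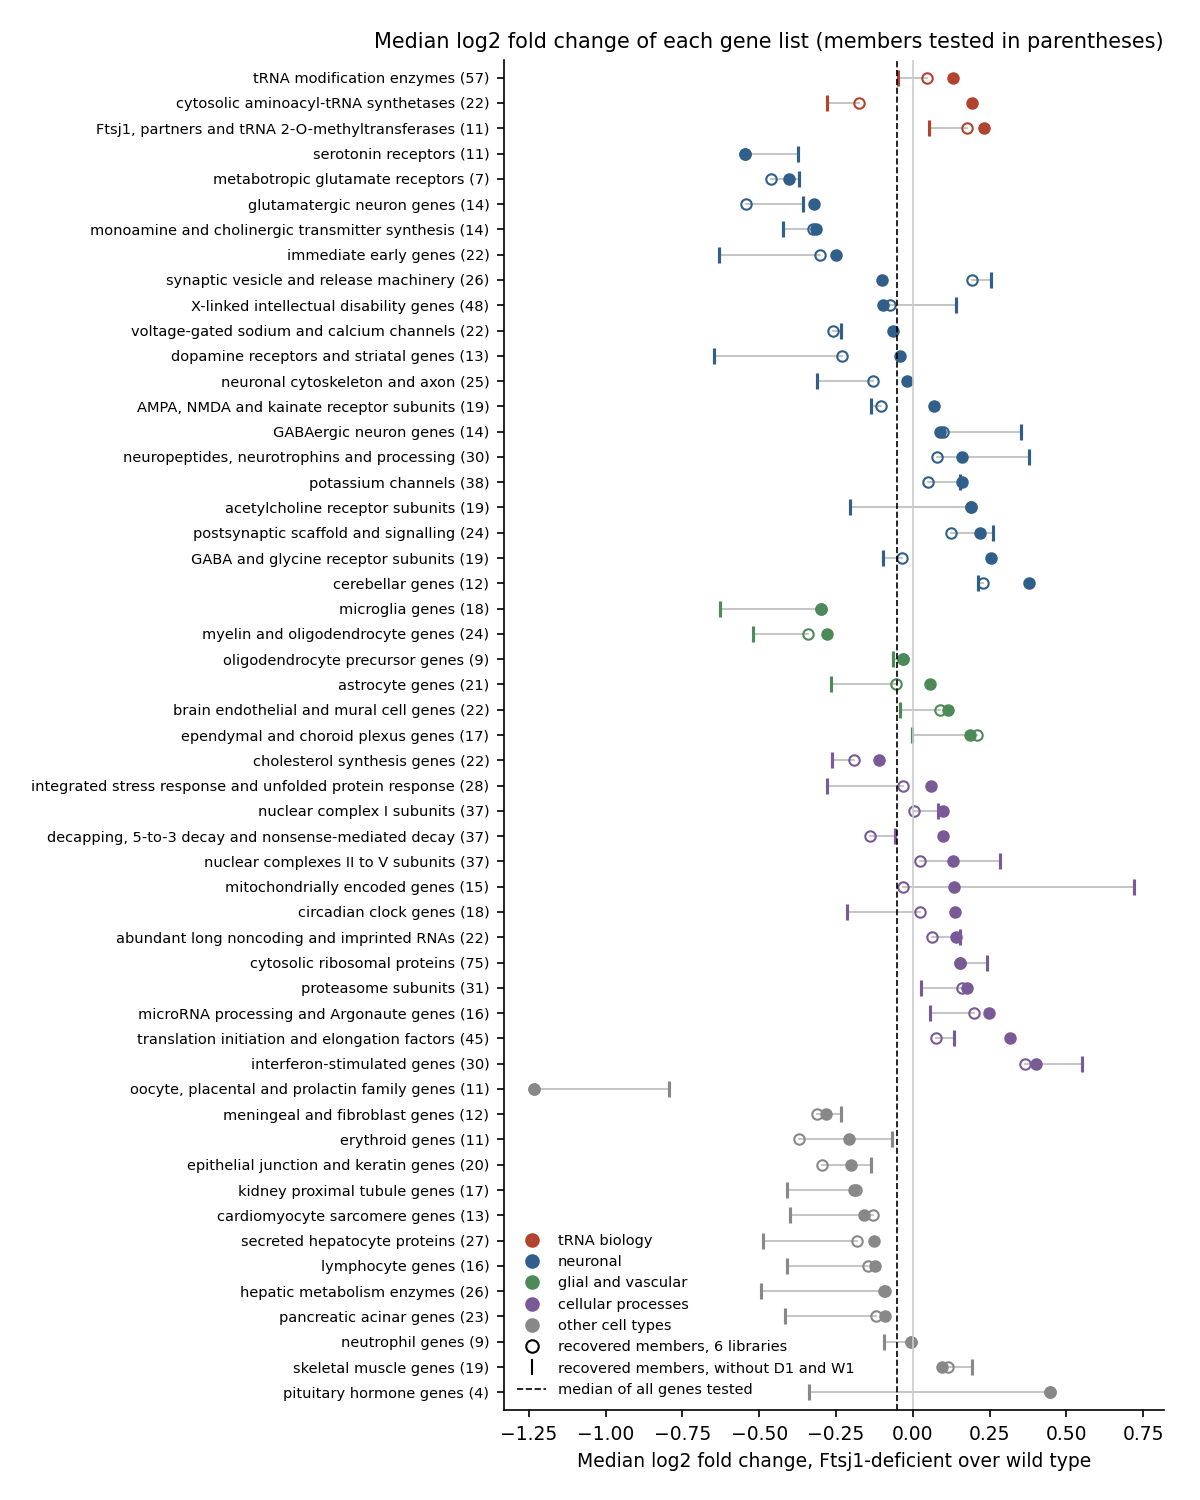
Median log2 fold change (deficient over wild type) of the 53 gene lists, as filled circles for all tested members, open circles for members with recovered counts and bars for the same members without D1 and W1, with a dashed line at the median of all genes tested (-0.05). Medians run from -1.23 (oocyte, placental and prolactin genes) to 0.45 (pituitary hormone genes, 4 members), and 25 of 53 are negative.

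Genes of other organs differed by library in both genotypes. Summed over recovered members, secreted hepatocyte proteins held normalized counts of 29589, 7332 and 6317 in D1, D2 and D3 and 28294, 8875 and 11238 in W1, W2 and W3. Pancreatic acinar genes held 17697, 3822 and 6674 in D1, D2 and D3 and 22692, 7994 and 6287 in W1, W2 and W3. D1 and W1 were highest in both lists. Their median log2 fold changes with all libraries were -0.12 and -0.09, none of 27 and 23 tested members passed, and leaving out D1 alone gave -1.36 and -1.16 over recovered members. Leaving out W1 alone gave 0.74 and 0.68, and leaving out both gave -0.49 and -0.42.

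The log2 fold changes of the liver-named table were set against those of the other 4 tables with a 2-sided z test on each difference, adjusted within each pair of tables by the Benjamini-Hochberg method. Of 17084 genes set against the brain-named table, 0 (0%) differed, with 910 at an unadjusted p under 0.05. Against heart 31 of 18769 (0.165%) differed, against kidney 147 of 18585 (0.791%) and against spleen 16 of 20017 (0.0799%). By their labels, the brain-named, heart and kidney tables come from the same 6 mice as the liver-named one, which the test does not take into account. Adjusted p under 0.05 was reached by 0.414% of genes tested in the brain-named table, 1.19% in heart, 2.07% in kidney and 0.217% in spleen. Of the 45 genes, Ftsj1 was the 1 that also passed in another of the authors' deposited tables, the brain-named one (-2.84 ± 0.38, adjusted p 1.75e-09, DESeq2) and the spleen one (-3.17 ± 0.77, 0.0261). It was -1.72 ± 1.03 in heart and -1.56 ± 0.61 in kidney, and none of its 4 differences passed (adjusted p 0.428 to 1.000).

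Genes with a neural pattern could hardly be compared. Ppp1r17 had a mean of 2753 here and 5.15 to 11.9 in the other tables, and En2 1249.8 against 7.69 to 16.8. For Cert1, measured in all 5 tables, the log2 fold changes elsewhere were 0.45 ± 0.33 (brain-named), -0.38 ± 0.30 (heart), 0.48 ± 0.21 (kidney) and 0.71 ± 0.47 (spleen). Stx4a had 0.05 ± 0.50, 0.43 ± 0.35, -0.33 ± 0.41 and -0.94 ± 0.66 in the same order. No difference from the liver-named value passed for either gene.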

How the data were processed

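The deposited values were 1 table per organ of degradome tags per gene, and the liver-named table supplied every value by library. Per the labels, tags came from 1 sample of each of 6 mice, with no library repeated. The submitters' processing notes name featureCounts (Subread 2.0.3), DESeq2 and GRCm39, without their roles, and read trimming and the treatment of tags with several matches are not given in the sources used here. The authors deposited mean normalized counts (a coverage-type signal), log2 fold changes with standard errors, a Wald score (the fold change divided by its error) and p-values with their adjusted form, all on the scale of DESeq2. A row without a gene name (1 per table) was left out.

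Tag counts by library were recovered in Python 3.11.15 (numpy 2.4.6): whole numbers for the 6 libraries were searched whose mean, divided by size factors, gave the deposited mean to 15 printed digits and whose refitted fold change matched the authors' DESeq2 value within 1e-12. The method was tested on simulated data. No values by library had been foreseen when the tests were planned, so refits without a library, limma 3.58.1 (R 4.3.3; log2 of the normalized count with 1 added) and the naming of the libraries were added after the data were seen. Refits used the dispersion that the deposited error implies, and adjusted over recovered genes by the Benjamini-Hochberg method. Tags without molecular identifiers are not independent molecules. The labels name separate mice, so p-values refer to the spread between mice, 3 for each genotype.

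The genes and the 53 lists were chosen with earlier results of these data known. Genes named are Ftsj1, those past the 5% threshold with a proper symbol (or, for gene models, a mean of at least 1000), the 10 of lowest p and the 10 of highest mean among abundant genes, and of each list the members past the threshold or else the 3 of highest mean. Up to 5 further genes past 10% with a mean of at least 100 were added. A few genes that the rule would name are not reported here. No sequences or coordinates were used, since the genome given was of another build.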

Additional observations from a re-analysis of the deposited data

Results flagged for a closer look

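Of the 45 genes, 29 were tested in both this table and heart, 31 in both this table and kidney, 24 for the brain-named table and 32 for spleen. The fold change differed for 3 against heart (0.165% of all genes tested in both), 4 against kidney (0.791%) and none against the other 2 tables, by a z test on the difference in log2 fold change adjusted over all genes of the 2 tables. Against the heart table the liver-named value was higher by 3.12 for Gm9143 (1.84 ± 0.44 here and -1.28 ± 0.55 there, adjusted p 0.0308). For Gm15032 it was higher by 3.29 (2.88 ± 0.71 and -0.40 ± 0.37, adjusted p 0.0360), and for Pex13-ps by 2.18 (1.53 ± 0.38 and -0.65 ± 0.37, adjusted p 0.0360). All 3 are pseudogenes or gene models, for which tags may come from other copies.

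Against the kidney table the difference was -4.98 for Gm28710 (-5.32 ± 0.99 here and -0.33 ± 0.67 there, adjusted p 0.00951), whose value here was -2.86 without D1 and W1. It was 1.87 for Gm4987 (1.80 ± 0.40 and -0.06 ± 0.27, adjusted p 0.0197), a gene model with 1384, 954 and 1629.5 in D1, D2 and D3 and 424, 402 and 312 in W1, W2 and W3. Rhcg, the ammonia transporter, differed by -3.42 (-2.37 ± 0.55 and 1.04 ± 0.76, adjusted p 0.0385), from means of 237 here and 2722 in kidney. Myl10 differed by 9.43 (3.85 ± 0.91 and -5.58 ± 2.22, adjusted p 0.0190), at means of 25.2 and 14.2. The values are from the authors' deposited tables and their DESeq2 fits. By the labels both tables come from the same mice, which the z test treats as independent, and the genes had been chosen for passing in the liver-named table. In the brain-named table Gm4987 had 1.91 ± 0.58 (adjusted p 0.106, DESeq2), near its value in the liver-named one.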

How the results depend on the processing

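The 45 genes became 8 (3 higher, 5 lower) at a 1% and 125 at a 10% false discovery rate, 26 (18 higher, 8 lower) with adjustment over means of at least 100, and 2 with the statistic divided by its robust spread. Leaving out a library in turn gave 2 (without W1) to 69 (without D2), of which 2 to 37 were among the 45, and leaving out D1 and W1 gave 2. limma gave 0 without and 952 (616 higher, 336 lower) with library weights, 39 of them among the 45. Named genes past the threshold, 22, became 4, 12 and 2 under the 1%, mean and spread settings, 1 to 19 without a library, 1 without D1 and W1, and 0 in limma without and 19 with library weights. Ftsj1 passed under every setting run except unweighted limma (adjusted p 0.734, log2 fold change -3.26), and was 0.000152 to 0.0105 without a library. At 10%, genes that differed from another table numbered 59 (heart), 252 (kidney) and 28 (spleen). The pseudogene share of 35.6% was 21.6% at 10%, and ran from 26.1% to 57.1% (without D1) when a library was left out. The share of gene model names, 53.3%, ran from 46.4% to 71.4% (without D1). Negative list medians, 25 of 53, were 21 to 24 under the planned settings, and no gene named as passing changed direction in any refit. No paired analysis was possible because the recovered libraries cannot be tied to mice, so a block by set of brothers could not be fitted. Refits cover genes with means of mostly up to 3000. Having 3 libraries per genotype limits the precision, and genes with a mean under 11.8 were not tested by the authors.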

Other observations

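Several gene groups were not described above. In parentheses stand the number of positive members and the medians over recovered members with all 6 libraries and without D1 and W1. None of the lists that follow held a gene past the threshold. Metabotropic glutamate receptors had a median log2 fold change of -0.40 (2 of 7 positive; -0.46 and -0.37), GABA and glycine receptor subunits 0.26 (10 of 19 positive; -0.03 and -0.10), and dopamine receptors and striatal genes -0.04 (5 of 13 positive; -0.23 and -0.65). Genes of monoamine and cholinergic transmitter synthesis had -0.31 (3 of 14 positive; -0.32 and -0.42), and glutamatergic neuron genes -0.32 (5 of 14 positive; -0.54 and -0.36). Sodium and calcium channels had -0.06 (9 of 22 positive; -0.26 and -0.24), potassium channels 0.16 (24 of 38 positive; 0.05 and 0.15), and cytoskeletal and axonal genes -0.02 (12 of 25 positive; -0.13 and -0.31). Beside these stands the median of -0.05 for all genes tested.

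Oligodendrocyte precursor genes had -0.03 (4 of 9 positive; -0.03 and -0.07), ependymal and choroid plexus genes 0.19 (11 of 17 positive; 0.21 and -0.00), and endothelial and mural cell genes 0.11 (14 of 22 positive; 0.09 and -0.04). Meningeal and fibroblast genes had -0.28 (4 of 12 positive; -0.31 and -0.23). Of lists for other organs, hepatic enzymes had -0.09 (10 of 26 positive; -0.09 and -0.50), cardiomyocyte genes -0.16 (2 of 13 positive; -0.13 and -0.40), proximal tubule genes -0.19 (5 of 17 positive; -0.18 and -0.41), erythroid genes -0.21 (3 of 11 positive; -0.37 and -0.07), lymphocyte genes -0.12 (5 of 16 positive; -0.15 and -0.41) and neutrophil genes -0.00 (4 of 9 positive; -0.00 and -0.09). Nuclear-encoded subunits of complex I had 0.10 (24 of 37 positive; 0.00 and 0.08) and those of complexes II to V 0.13 (23 of 37 positive; 0.02 and 0.29). Proteasome subunits had 0.18 (20 of 31 positive; 0.16 and 0.03), circadian clock genes 0.14 (12 of 18 positive; 0.02 and -0.21), and abundant noncoding and imprinted RNAs 0.14 (15 of 22 positive; 0.06 and 0.15). Within the complexes, Uqcrc2, a core protein of complex III picked after its value was seen, had 1.08 ± 0.33 with an adjusted p of 0.142 by DESeq2 in the authors' deposited table.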
